A study of Mus musculus with 89 samples.

Results

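The 10 genes studied here are genes of tuft cell chemosensing and signalling (Trpm5, Dclk1, Gnat3, Plcb2, Sucnr1, Rgs13, Avil, Sh2d6, Nrgn and Matk), followed through single cells and cell clumps of the mouse jejunum. They were taken by name and all 10 were present among the 27538 genes of the clump table and the 23379 genes of the single cell table. Tissue came from C57BL/6 mice with no genetic change or treatment given, labelled 3 months old, except 3 plates of single cells from mouse 2 labelled 4 months. The epithelium was dissociated with EDTA only partially, so that pieces of a few neighbouring cells stayed attached, and these clumps were sorted by DNA content into pairs (4n; mice 1 to 5) and larger clumps (above 4n; mice 1, 4 and 5). Single cells came from mice numbered 1 to 4, and whether a number stands for the same animal in clumps and single cells is not given in the sources used here. Each sorted clump or cell filled a well of a plate, and MARS-seq gave the number of unique molecular identifiers (UMIs) per gene and well. A UMI stands for 1 captured mRNA molecule whatever its length, so levels in UMIs per 1000000 UMIs (CPM) may be set side by side between genes.

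Scattered through the gut lining, tuft cells sense the contents of the lumen with much of the signalling cascade known from taste cells. In that cascade a ligand in the lumen, such as succinate at its receptor Sucnr1, acts through a G protein with the α-subunit gustducin (Gnat3), phospholipase C (Plcb2) forms the messenger that releases calcium from stores, and calcium opens the cation channel Trpm5. Tuft cells then release interleukin 25 and other mediators that call in type 2 immune cells. The other 6 genes are named as tuft cell genes for other functions. Rgs13 limits G protein signalling, Dclk1 is a microtubule-binding kinase, Avil (advillin) binds actin, Nrgn (neurogranin) binds calmodulin, Matk is a tyrosine kinase related to Csk, and Sh2d6 has an SH2 domain, which binds phosphorylated tyrosine.

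In the GRCm38 annotation, Trpm5 lies at chr7:143069153-143094642 on the minus strand and shares its 3′ end with Tssc4 (chr7:143069249-143071093) on the plus strand. Avil (chr10:127000709-127020994, plus) overlaps Tsfm on the other strand, and Dclk1 (chr3:55242364-55539068, plus) overlaps 6 gene models. No gene model overlapped the other 7 genes. The methods of the study say that the counting was set to the strand of the library, by which reads from overlapping genes on the other strand are kept apart. Promoters, from 250 bases before to 50 bases after a RefSeq start (GRCm38.p6), were found for all 10 genes (12 entries). They were read for the octamer ATGCAAAT, or ATTTGCAT on the other strand, which is the textbook sequence bound by POU factors, the family of the tuft cell factor Pou2f3. The octamer stood in 570 of 32851 promoters of this length (1.74%), and in 1 of the 12 entries of these genes, that of Sucnr1. The promoters of Sucnr1 (chr3:60081619-60081918, plus strand), of Trpm5 (chr7:143094593-143094892, minus strand) and of Sh2d6 (chr6:72519987-72520286, minus strand) are shown 5′ to 3′, because Sucnr1 holds the octamer, Trpm5 is the gene whose pattern in clumps stood apart, and Sh2d6 was the most abundant of the 10. Capitals mark the octamer, whose first base is 48 bases before the start.
Sucnr1: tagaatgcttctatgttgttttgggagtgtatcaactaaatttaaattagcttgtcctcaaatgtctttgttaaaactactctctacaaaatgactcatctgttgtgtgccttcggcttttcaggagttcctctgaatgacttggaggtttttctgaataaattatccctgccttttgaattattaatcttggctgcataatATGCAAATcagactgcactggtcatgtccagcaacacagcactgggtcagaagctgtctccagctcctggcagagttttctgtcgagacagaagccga
Trpm5: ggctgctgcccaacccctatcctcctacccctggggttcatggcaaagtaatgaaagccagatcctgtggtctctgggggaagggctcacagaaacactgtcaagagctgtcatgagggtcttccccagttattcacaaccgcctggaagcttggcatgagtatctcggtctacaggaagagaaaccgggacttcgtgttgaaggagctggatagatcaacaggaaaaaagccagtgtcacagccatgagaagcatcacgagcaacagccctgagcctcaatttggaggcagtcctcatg
Sh2d6: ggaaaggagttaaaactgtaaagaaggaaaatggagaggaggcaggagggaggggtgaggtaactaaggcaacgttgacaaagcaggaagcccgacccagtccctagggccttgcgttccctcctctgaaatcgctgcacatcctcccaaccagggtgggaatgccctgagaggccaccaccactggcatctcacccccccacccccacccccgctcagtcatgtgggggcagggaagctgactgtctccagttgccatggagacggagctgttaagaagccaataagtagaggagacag

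After filters 5199 single cells remained, and clustering without the 10 genes gave a tuft-like class of 179 cells, with Siglecf, Strip2, Krt18 and Tspan6 among its leading genes. The other classes were enterocyte-like (2469 cells), T cell-like (1672), enteroendocrine-like (246) and goblet-like (208), beside a cluster of 415 cells led by haemoglobin and immunoglobulin genes and a cluster of 10 cells led by Dcn and Col3a1, neither of which was named. In finer clusters, 355 cells of the T cell-like class fell in a cluster led by α-defensins of Paneth cells, so that class is mixed. The tuft-like cells were spread unevenly over the animals, with 19, 150, 6 and 4 cells in mice 1 to 4. In mouse 2 they made up 97 of 1080 cells in the plates labelled CD24, a surface protein used to enrich tuft cells, 7 of 573 in the plates labelled Epcam, 14 of 49 in 3-month plates with no gate in the label and 32 of 91 in the 4-month plates. Their median depth was 2304 UMIs per cell. In mice 3 and 4 the tuft-like cells held 16221 and 10977 UMIs in all, where a count of 0 allows up to 184.9 and 273.3 CPM (3 UMIs). Intervals and limits here cover counting error only.

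All 10 genes had their highest mean level in the tuft-like class, though under other ways of naming cells this did not hold for Plcb2 and Gnat3 (given with those genes). Sh2d6 was the most abundant, at 2239 ± 562 CPM (SD, n = 4 mice), followed by Nrgn at 1424 ± 580, Trpm5 at 1190.5 ± 315, Dclk1 at 1168 ± 222, Avil at 1091 ± 243, Rgs13 at 1025 ± 218 and Matk at 951 ± 393 CPM. From Nrgn down to Matk, neighbours in this order lay within 1 SD of each other. The remaining 3, the enzyme, the receptor and the G protein of the cascade, were far lower, with Plcb2 at 141 ± 103, Sucnr1 at 82.8 ± 105 and Gnat3 at 36.3 ± 50.9 CPM. These levels are given as a description with no test, since the genes are known as tuft cell genes.

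The channel Trpm5 was read at 1381.8, 1512.2, 1048 and 819.9 CPM in the tuft-like cells of mice 1 to 4. Sh2d6 was read at 2390.2, 2688.3, 1417.9 and 2459.7 CPM, and Matk at 1064.4, 1425.2, 493.2 and 819.9 CPM. For each of these the lowest mouse was mouse 3 or 4, the animals with the fewest tuft-like cells. The receptor Sucnr1 was read at 112 and 219 CPM in mice 1 and 2 and at 0 in mice 3 and 4. Gnat3 was read at 37.3 and 108 CPM in mice 1 and 2 and likewise at 0 in mice 3 and 4. Plcb2 was read at 149, 168 and 247 CPM in mice 1 to 3 and at 0 in mouse 4. The values of Sucnr1 and Gnat3 in mice 1 and 2, and all 3 values of Plcb2, were below the 273.3 CPM that 0 UMIs allow in mouse 4, so the zeros of mouse 4 do not show a difference between animals. In mouse 3, with a limit of 184.9 CPM, the same held except that the Sucnr1 level of mouse 2 (219 CPM) was above it.

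**Figure D1:**
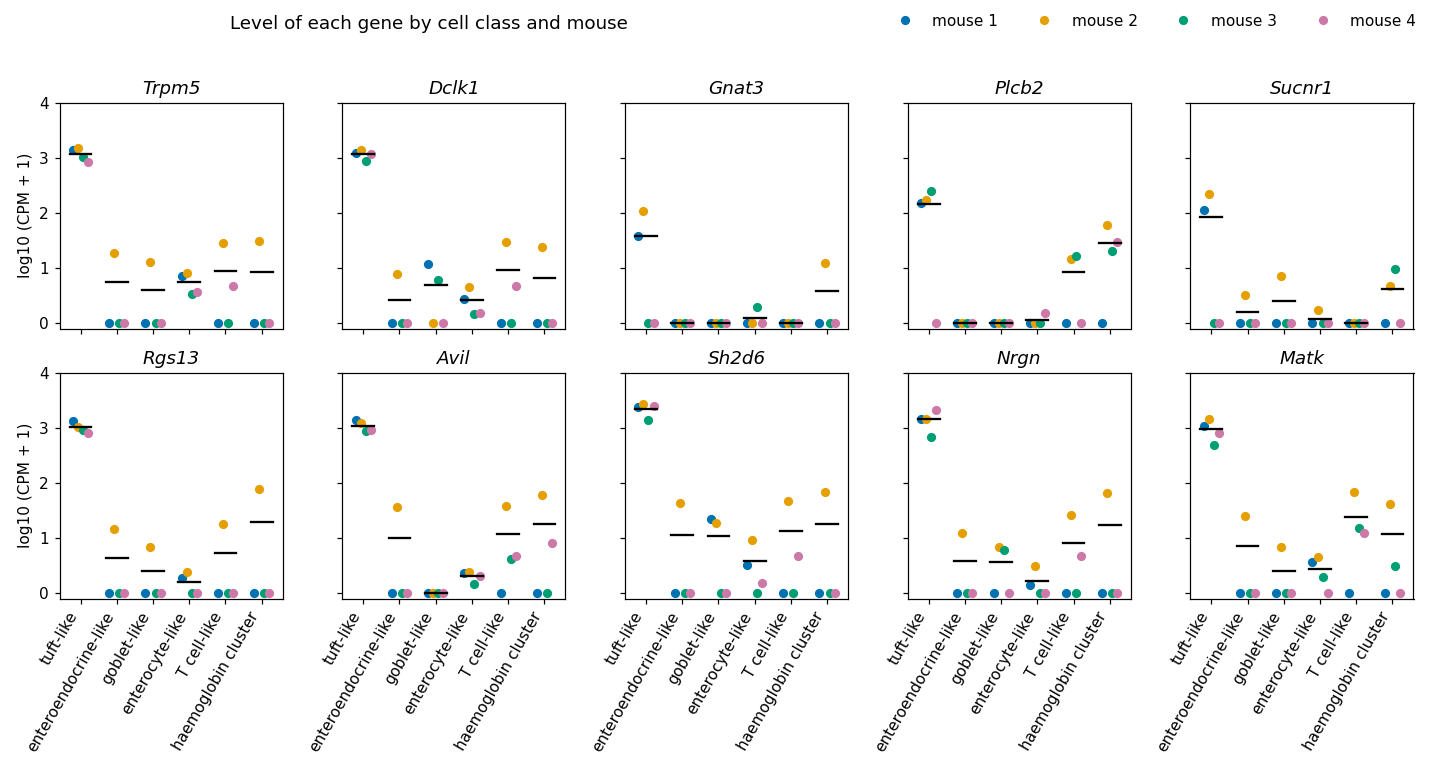
Level of the 10 genes in single cells as log10 (CPM + 1), by cell class (horizontal axis) and mouse (colours, 1 point a mouse), with the class mean CPM as a line. Tuft-like cells stand above every other class in all 4 mice for 7 genes, while Gnat3, Plcb2 and Sucnr1 have tuft-like values of 0, and the highest point of another class is mostly that of mouse 2.

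For 7 of the 10 genes every mouse's tuft-like value exceeded every value of every other class in any mouse. Over all 12500 genes with at least 20 UMIs, 178 did so (1.42%). The exceptions were Gnat3, Plcb2 and Sucnr1, which had zeros, and over mice 1 and 2 alone all 10 genes were apart (6.46% of all genes). The level in tuft-like cells was 153 times that of the next class for Trpm5, 145 times for Dclk1, 132 times for Sh2d6 and 88.8 times for Nrgn. It was 64.6 times for Avil, 54.3 times for Rgs13, 41.2 times for Matk, 26.8 times for Sucnr1 and 12.8 times for Gnat3. Plcb2 had the lowest ratio, 5.2 times the next class. These ratios depended on how cells were named. With cells named by their highest marker sum they were 17.0 for Sh2d6, 14.3 for Trpm5, 13.8 for Matk, 11.2 for Dclk1, 8.73 for Nrgn, 6.85 for Rgs13, 6.26 for Avil, 4.14 for Plcb2 and 2.43 for Sucnr1. Between 84.2% (Matk) and 92.5% (Nrgn) of the UMIs of 9 genes lay in the 179 tuft-like cells, but 57.1% of those of Plcb2 (68 of 119).

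Of the Plcb2 UMIs outside tuft-like cells, 29 lay in the haemoglobin and immunoglobulin cluster, where Plcb2 was read in 3 of 4 mice at 60.4, 19.3 and 28.9 CPM (mice 2, 3 and 4), and 21 lay in T cell-like cells. In finer clusters 25 of them fell in an unnamed cluster of 209 cells led by haemoglobin genes with Lyz2, Csf1r and C1qb, genes of macrophages, where Plcb2 was at 66.1 CPM. A further 4 UMIs fell in an unnamed cluster of 29 cells with Siglech, a gene of plasmacytoid dendritic cells, at 92.3 CPM over all mice and a mean over mice of 280.7 CPM, which put tuft-like cells below it (log2 ratio −0.99). When cells were named by their highest marker sum, the Gnat3 mean of an erythroid class (48.2 CPM) was likewise above that of tuft-like cells (36.5 CPM, log2 ratio −0.40). Matk followed in T cell-like cells, with 66 UMIs and 67.1, 14.1 and 11.2 CPM in mice 2, 3 and 4. In finer clusters 30 Matk UMIs stood in the defensin-led cluster and 31 in T cell-like cells. For Trpm5 the same finer clusters held 15 and 9 UMIs. By the main classes, 22 of its 23 UMIs in T cell-like cells, and all 8 in the haemoglobin and immunoglobulin cluster, came from mouse 2, the mouse with the most tuft-like cells. RNA from tuft cells in other wells of that animal was not tested as their source.

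The genes whose levels over 24 sums (mouse by class) were most like the mean of the 10 genes, on log2 (CPM + 10), were Sh2d7 (r = 0.991), Ly6g6d, Col15a1, Bmx, Ly6g6f, Alox5, Strip2, Slc4a8, Hap1 and Siglecf (r = 0.968). The sums share mice and differ in depth, so r is a description of likeness. Sh2d7, like Sh2d6, has an SH2 domain, Bmx is a Tec family tyrosine kinase, Alox5 makes leukotrienes, Siglecf is a sialic acid-binding receptor known from eosinophils and Slc4a8 is a bicarbonate transporter. In tuft-like cells Siglecf was at 494 ± 274, Strip2 at 489 ± 99.3, Alox5 at 462 ± 228, Bmx at 455 ± 77.9 and Sh2d7 at 434 ± 129 CPM (SD, n = 4). Each of the 10 genes correlated with that mean at 0.985 to 0.992, apart from Plcb2 (0.784), Gnat3 (0.733) and Sucnr1 (0.720). Each is itself part of the mean, which raises its r, so these values do not compare with those of the genes above.

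Other genes of the pathway were read from 5 lists. Tuft-like values lay above all other classes and mice for 16 of 19 immune-type signalling genes, among them Fyb (1252 ± 350 CPM) and Ptpn18 (1106 ± 223), for 11 of 15 cytoskeleton and surface genes, for 6 of 10 transcription factors and for 5 of 13 effectors. Many of these genes are also among the markers that named the class. Of 11 taste cascade genes in the table, only Itpr2, a receptor that releases calcium from stores, did so, at 310 ± 50.6 CPM against 46.1 in the next class. Gng13, the γ-subunit that pairs with gustducin, was at 64.3 ± 51.2 CPM against 1.48, and the fatty acid receptor Ffar3 at 131 ± 87.6 against 1.68 CPM, both with overlap between tuft-like and other values. Of the taste receptors listed, Tas1r3 had 1 UMI among all cells and none in tuft-like cells. Itpr3, the calcium store receptor of taste cells, was at 16.7 ± 22.7 CPM in tuft-like cells and at 154 CPM in the class with the highest mean, and the Trpm5 relative Trpm4 was at 5.42 ± 8.95 against 64.2 CPM. The octamer-binding factor Pou2f3 was at 175 ± 132 CPM in tuft-like cells and at 0 in the means of all other classes. Among effectors, the leukotriene genes Alox5ap (1011 ± 230 CPM) and Ltc4s (366 ± 157) were high, while Il25, the gene of interleukin 25, was at 4.5 ± 9 CPM.

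Within the tuft-like class, a median of 7 of the 10 genes had at least 1 UMI in a cell. At least 5 genes were found in 159 of 179 tuft-like cells, in 1 of 2469 enterocyte-like cells, in 3 of 1672 T cell-like cells, in 3 of 415 cells of the haemoglobin and immunoglobulin cluster and in no enteroendocrine-like or goblet-like cell. The 14 tuft-like cells with 3 or fewer genes had a median of 619 UMIs in all, against 2420 in the other 165. After every cell was thinned to 500 UMIs, which left out 8 tuft-like and 319 T cell-like cells, the median was 4 of 10.

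**Figure D2:**
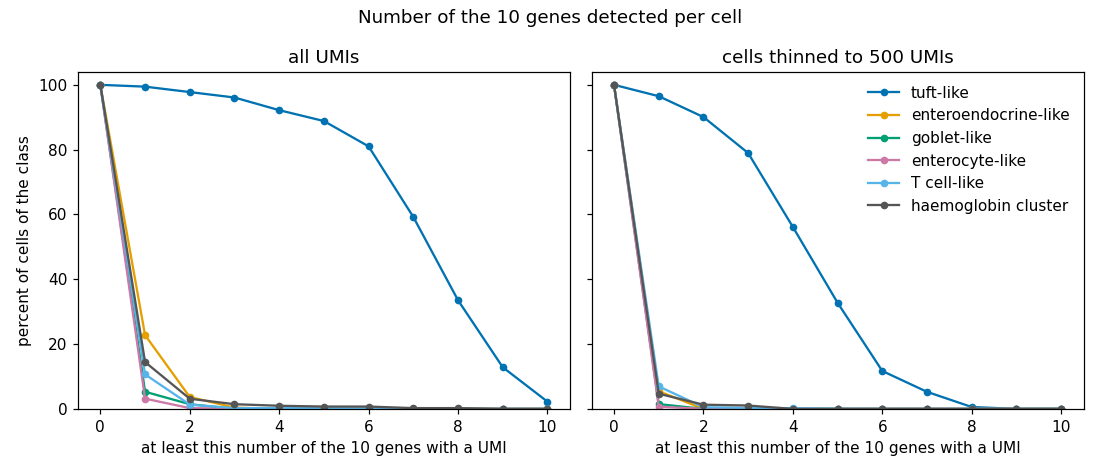
Percent of cells of each class (vertical axis) with a UMI of at least the given number of the 10 genes (horizontal axis), with all UMIs (left) and after thinning every cell to 500 UMIs (right). With all UMIs 88.8% of tuft-like cells have 5 or more genes, and in every other class under 1%.

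Sh2d6 was found in 94.4% of tuft-like cells (169 of 179; 95% Wilson interval 90.0% to 96.9%), Trpm5 in 84.9%, Dclk1 and Nrgn in 84.4% each, Matk in 83.2%, Avil in 81.0% and Rgs13 in 76.0%. The shares were 30.2% for Sucnr1 (23.9% to 37.3%), 29.1% for Plcb2 (22.9% to 36.1%) and 15.6% for Gnat3 (11.1% to 21.7%). With 500 UMIs per cell they were 71.3% for Sh2d6, 46.8% for Trpm5, 11.7% for Sucnr1, 8.19% for Plcb2 and 6.43% for Gnat3. The shares in enterocyte-like cells, which should lack these genes and had a median of 2851 UMIs, lay between 0.0405% (Gnat3, Plcb2 and Sucnr1) and 1.3% (Trpm5) with all UMIs. At 500 UMIs they were 0.289% for Trpm5, 0.0826% for Sh2d6 and 0 of 2422 cells for Gnat3, Plcb2, Sucnr1 and Nrgn, which allows up to 0.124%. In T cell-like cells 3.35% had a Matk UMI, the highest share of any of the genes there, and none a Gnat3 or Sucnr1 UMI (at 500 UMIs, 0 of 1353 cells allows up to 0.222%).

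Cell by cell, the correlations between the 10 genes were weak. Over 171 tuft-like cells thinned to 500 UMIs, the 45 pairwise Spearman correlations had a median of 0.028 and ran from −0.146 (Dclk1 with Gnat3) to 0.215 (Sh2d6 with Matk), with 31 above 0. Other draws of the same thinning gave medians of 0.0407 to 0.0655, and at 1000 UMIs (144 cells) the median was 0.105 with 40 of 45 pairs above 0. In log-normalized counts without thinning (179 cells) the median was 0.107, the highest pairs were Sh2d6 with Matk (0.333), Trpm5 with Sh2d6 (0.301), Sh2d6 with Nrgn (0.292) and Gnat3 with Sucnr1 (0.291), and 37 were above 0. The cells differ in depth, and the UMIs of a gene correlated with the depth of the cell at 0.144 (Gnat3) to 0.698 (Sh2d6). Of these cells 150 of 179 came from mouse 2, and over the 28 thinned cells of the other mice the median was −0.028. Correlations of this size in counts this sparse are given as values only.

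Trpm5 was found in 84.9% of all tuft-like cells, so most cells with a sparse gene of the cascade had it too. A Trpm5 UMI was present in 50 of 54 cells with Sucnr1 and in 102 of 125 without, in 47 of 52 cells with Plcb2 and in 105 of 127 without, and in 25 of 28 cells with Gnat3 and in 127 of 151 without. Gnat3 was found in 17 of 54 cells with Sucnr1 and in 11 of 125 cells without it. Cells with each of these sparse genes were also deeper than those without. The medians were 2736 UMIs against 2193 UMIs for Sucnr1, 2841 against 1960 for Plcb2 and 2816 against 2215 for Gnat3. At 500 UMIs the correlation of Gnat3 with Sucnr1 was 0.03.

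**Figure D3:**
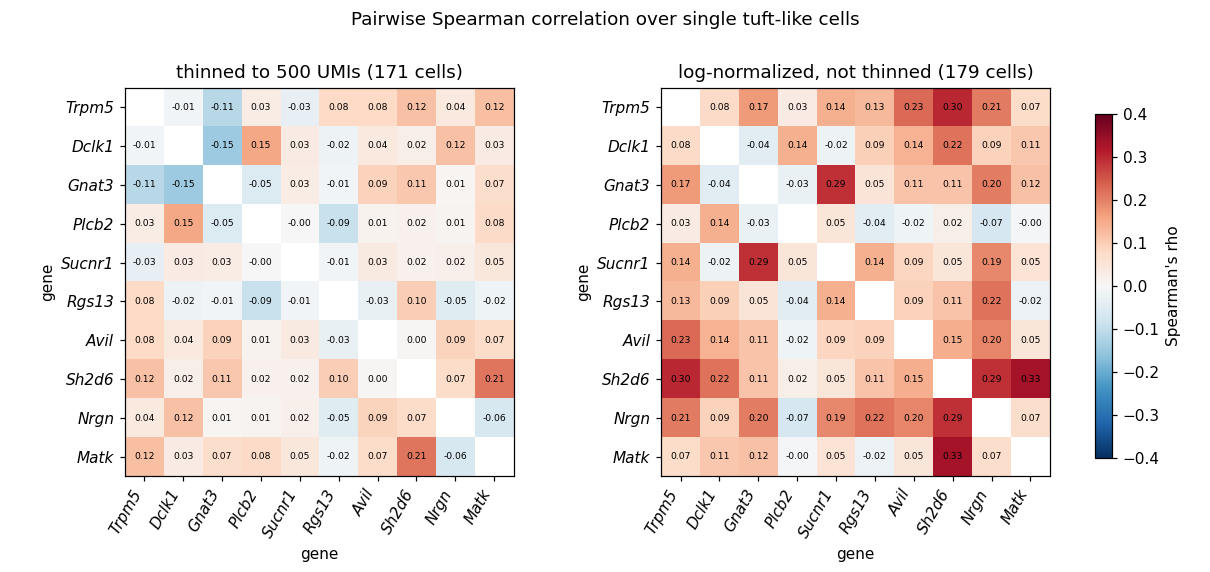
Spearman's correlation between each pair of the 10 genes over single tuft-like cells, in 171 cells thinned to 500 UMIs (left) and in log-normalized counts of 179 cells (right). Rows and columns are genes and colour gives rho. Thinned values lie between −0.146 and 0.215, and values without thinning reach 0.333.

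The next question was where along the crypt to villus axis these genes are found. In clumps, the enterocytes attached to a secretory cell give its position, so each of 5883 clumps was given a zone from enterocyte landmark genes, none of which is among the 10. This gave 3529 crypt, 1550 mid-villus and 804 villus tip clumps, with 79055 to 19001409 UMIs per mouse and zone. In these sums fewer tuft cells and less RNA per tuft cell cannot be told apart. Tuft cells are rare in them, and over all zones Trpm5 had 129 UMIs, Dclk1 127, Sh2d6 121, Avil 111, Nrgn 74, Rgs13 60, Matk 46, Sucnr1 11, Plcb2 10 and Gnat3 2. None of the 10 genes passed the filter on low counts in the edgeR quasi-likelihood test across zones, in which 52.7% of 7376 genes were called at the villus tip (22.4% higher, 30.3% lower) and 39.9% in the mid-villus (16.4% higher, 23.5% lower), each against the crypt and at an adjusted p under 0.05.

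With no such filter all 10 genes entered the fit and Trpm5 was the only one called. Its levels were 4.75, 1.14, 2.83, 1.05 and 2.71 CPM in the crypt clumps of mice 1 to 5, 10.3, 1.23, 19.4, 2.25 and 0 CPM in mid-villus clumps, and 4.98, 12.5, 25.7, 0 and 0 CPM in villus tip clumps. Mouse 3 was the highest in both villus zones, the values overlapped between all zones, and mice 4 and 5, with 27 and 68 tip clumps, had no Trpm5 UMI there, which allows up to 37.2 and 37.9 CPM. The change from crypt to tip was 2.70 on the log2 scale (SE 0.72, edgeR adjusted p = 0.00677) and to mid-villus 1.97 (SE 0.66, adjusted p = 0.0392). Of 24570 genes 6.50% were called higher at the tip and 5.13% in the mid-villus, while the median change over all genes in that fit was −0.68 and −0.56. With the mouse as a block, a choice made after seeing the data, the edgeR change was 2.51 (adjusted p = 3.2e-05) and 1.77 (adjusted p = 0.000904). Without mouse 3, and with no block, the Trpm5 change fell to 1.18 (adjusted p = 0.623) and 0.50 (adjusted p = 0.741), and neither was called. The mid-villus call was also lost without mouse 1 (1.86, adjusted p = 0.109), without mouse 2 (1.64, adjusted p = 0.0732) and with DESeq2 size factors (1.63, adjusted p = 0.0894), and DESeq2 called Trpm5 in neither zone (adjusted p = 0.0689 at the tip and 0.295 in the mid-villus).

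The other 9 genes were not called between zones in the same fit. Dclk1 was at 5.13 ± 5.43 CPM in crypt, 6.11 ± 5.67 in mid-villus and 3.43 ± 7.67 CPM in tip clumps (SD, n = 5 mice), and Sh2d6 at 3.3 ± 5.1, 6.71 ± 6.96 and 2.94 ± 6.58 CPM. Avil was at 4.2 ± 4.1, 2.32 ± 3.29 and 1.98 ± 2.72 CPM, and Rgs13 at 2.26 ± 3.5, 3 ± 4.13 and 1.99 ± 4.46 CPM. These SDs were as large as the means or larger in most zones, and nearly all villus UMIs of these 4 genes came from mice 1 and 3. With the mouse as a block, Matk (1.62 ± 2.23 CPM in crypt, 4.44 ± 6.14 CPM at the tip) was also called higher at the tip, by 2.00 on the log2 scale (edgeR adjusted p = 0.0474), and its tip UMIs came from 2 clumps. Sucnr1 had 3 crypt, 7 mid-villus and 1 tip UMIs. Gnat3 had 2 UMIs, both in crypt clumps.

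**Figure D4:**
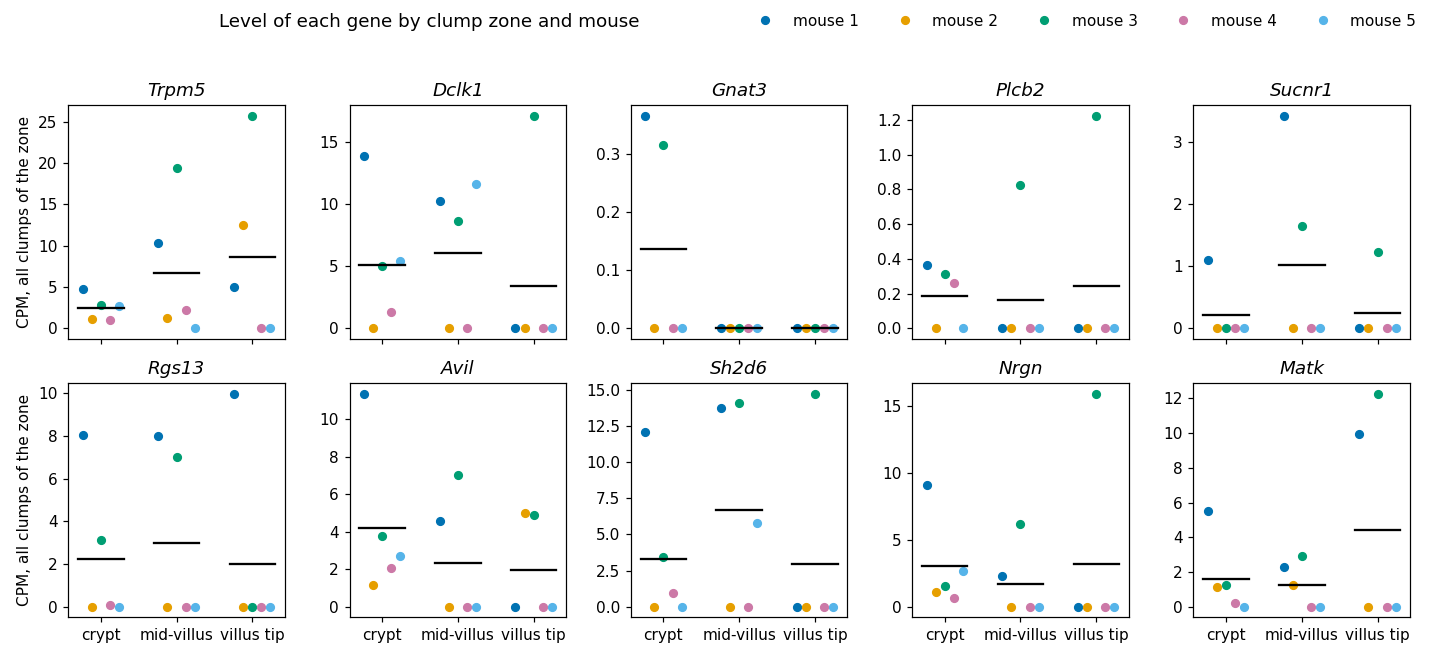
Level of each of the 10 genes in CPM over all clumps of a zone (horizontal axis), 1 point a mouse (colours) with the mean as a line; each panel has its own vertical scale. Trpm5 reaches 19.4 and 25.7 CPM in the mid-villus and tip clumps of mouse 3 against 2.83 CPM in its crypt clumps, and for most genes the highest points are those of mice 1 and 3.

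Clumps that held a tuft cell were then called from 46 tuft markers that leave out the 10 genes (at least 5 UMIs of at least 3 markers, and at least 0.2% of the clump's UMIs). There were 30, of which 22 were crypt and 8 villus clumps, and 23 of the 27 clumps with at least 3 of the 10 genes were among them. Most genes were concentrated there, with 57 of 60 Rgs13 UMIs (95.0%), 10 of 11 Sucnr1, 41 of 46 Matk (89.1%), 106 of 121 Sh2d6 (87.6%), 101 of 127 Dclk1 (79.5%), 58 of 74 Nrgn (78.4%) and 72 of 111 Avil UMIs (64.9%). Trpm5 differed, with 43 of 129 UMIs (33.3%), and Plcb2 had 5 of 10. The low share of Trpm5 rests largely on mouse 3. By a wider call of these clumps, given below, 80 Trpm5 UMIs lay outside them. Of these, 35 mid-villus and 18 tip UMIs came from mouse 3.

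This pattern of Trpm5 was singled out after its values were seen. Outside tuft-containing clumps by a wider call (46 clumps, chosen after seeing the data), 65 clumps had a Trpm5 UMI and 51 of these were villus clumps on 17 plates. In all 51 no other gene of the 10 had a UMI, 40 had no UMI of any tuft marker, and 42 came from mouse 3. Outside those clumps Trpm5 was at 0.372, 1.15, 1.60, 0.371 and 2.71 CPM in the crypt of mice 1 to 5, at 4.62, 1.23, 14.7, 2.25 and 0 CPM in the mid-villus, and at 5, 12.5, 22.2, 0 and 0 CPM at the tip. The tip was above the crypt in mice 1 to 3 and at 0 in mice 4 and 5. With no filter on low counts and without these clumps, the edgeR change was 4.09 (SE 0.82, adjusted p = 0.000383) from crypt to tip and 3.02 (SE 0.77, adjusted p = 0.00569) to mid-villus for Trpm5, where 6.52% and 5.14% of genes were called higher. Without mouse 3 as well it was 3.49 (adjusted p = 0.0646) and 1.92 (adjusted p = 0.422), and without mouse 1 the mid-villus call was lost too (2.36, adjusted p = 0.0631). The mean difference between tip and crypt was 6.70 ± 9.45 CPM over 5 mice (SD; exact permutation test, two-sided, p = 0.25; the smallest p possible is 0.0625).

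In single enterocyte-like cells, held in a separate table from the clumps, Trpm5 was at 7.21, 10.9, 6.21 and 4.89 CPM in tip cells of mice 1 to 4, at 0, 2.86, 0.946 and 1.31 CPM in mid-villus cells and at 0, 11.4, 1.90 and 0 CPM in crypt cells. Tip exceeded crypt in 3 of 4 mice, by 3.97 ± 3.24 CPM on average (SD; exact permutation test, two-sided, p = 0.25, where the smallest p possible is 0.125), with 27 UMIs in 1213 tip cells and 3 UMIs in 363 crypt cells. The crypt zeros of mice 1 and 4 came from 3 and 121 cells, where 1 UMI makes 85.3 and 3.65 CPM. With the limit of 3 UMIs for a count of 0, those zeros do not show a level below the tip. Of 32 enterocyte-like cells with a Trpm5 UMI, 30 had no UMI of the other 9 genes. The same difference outside tuft-containing clumps for Tssc4, the gene that overlaps the 3′ end of Trpm5, was −1.81 ± 6.27 CPM, with 5.55 ± 5.29 CPM in crypt, 2.98 ± 2.31 in mid-villus and 3.73 ± 4.32 CPM in tip clumps.

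For tuft cells themselves, crypt and villus were compared within tuft-containing clumps. The planned edgeR test could not be fitted, since no mouse had 5 villus clumps of this kind, and the values are given without a test. Summed over clumps and set against 100 UMIs of tuft markers, Sh2d6 had 6.22 UMIs in the 22 crypt and 12.3 in the 8 villus clumps, Nrgn 3.68 and 6.25, Matk 2.67 and 4.31, Rgs13 3.93 and 5.60, Sucnr1 0.381 and 1.51, Trpm5 3.05 and 4.09, and Dclk1 7.61 and 8.84. Avil (6.09 and 5.17) and Gnat3 (0.254 and 0, from 2 UMIs) were lower in the villus. These sums pool crypt clumps of 4 mice and villus clumps of 2. Within mouse 1, by the wider call described next, Nrgn (5.85 in crypt and 1.82 in villus), Matk (3.51 and 2.73) and Dclk1 (8.90 and 8.18) were lower in the villus too, from 2 to 9 villus UMIs each. Single tuft-like cells, pooled, had 11.7 Sh2d6, 6.56 Nrgn, 6.01 Matk, 6.61 Trpm5 and 5.53 Avil UMIs per 100 tuft marker UMIs. Per clump, the 10 genes together had a median of 26.7 UMIs per 100 tuft marker UMIs in the crypt (0 to 83.3) and of 53.4 in the villus (21.9 to 70.6), so the clumps overlapped. Tuft markers also took a larger share of the villus clumps, with a median of 1.10% of their UMIs against 0.440% in the crypt, and all 8 villus clumps came from mice 1 and 3.

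**Figure D5:**
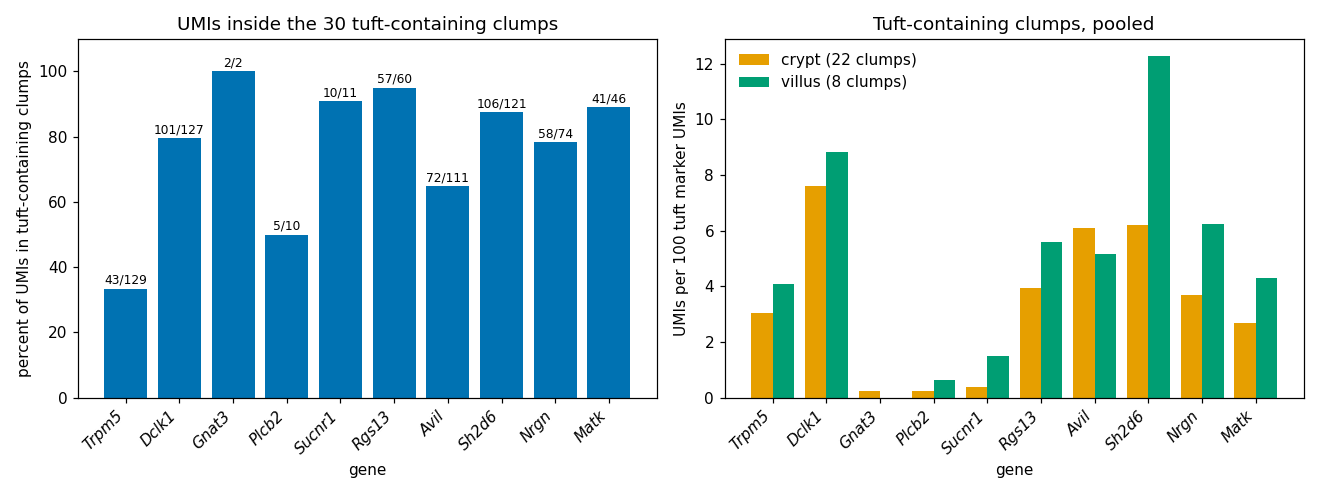
Left, percent of each gene's clump UMIs that lie in the 30 tuft-containing clumps, with the counts above the bars. Right, UMIs of each gene per 100 UMIs of tuft markers, pooled over 22 crypt and 8 villus tuft-containing clumps. Trpm5 has 33.3% of its UMIs in these clumps. Sh2d6 is at 6.22 in the pooled crypt and at 12.3 in the pooled villus clumps, values given without a test.

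The wider call gave 10, 5, 7 and 13 crypt clumps in mice 1 to 4 and 5 and 6 villus clumps in mice 1 and 3, enough for a fit. Sh2d6 was at 712, 0, 234 and 89.0 CPM in the crypt and at 1119 and 1335 CPM in the villus, Trpm5 at 267, 0, 85.1 and 116 CPM and at 466 and 445 CPM, Dclk1 at 846, 0, 319 and 116 CPM and at 839 and 949 CPM, and Matk at 334, 0, 85.1 and 17.8 CPM and at 280 and 504 CPM. The crypt sum of mouse 2 had no UMI of these 4 genes, and in mouse 1 Dclk1 and Matk were higher in the crypt than in the villus. By edgeR Sh2d6 was higher in villus clumps by 3.00 (SE 0.75, adjusted p = 0.0122), Matk by 2.74 (SE 0.94, adjusted p = 0.0389), Trpm5 by 2.58 (SE 0.70, adjusted p = 0.0155) and Dclk1 by 2.24 (SE 0.76, adjusted p = 0.0373), all on the log2 scale. The filter on low counts bears on these calls. It kept a gene with at least 254 CPM in 2 of the 6 sums, and of the 10 genes 7 passed, but 6 of them (all but Dclk1) reached 2 sums only with a villus sum. Having passed through the group in which they were high, they give no support for a difference, and their number called is not read against the 35.3% of all 892 genes called (223 higher, 92 lower). Of all genes that passed, 25.9% needed a villus sum and 55.4% a crypt sum, and the median change was 0.52 with the filter and −1.39 without it. Rgs13 (2.61, adjusted p = 0.0635), Avil (1.77, adjusted p = 0.0602) and Nrgn (2.53, adjusted p = 0.0562) were not called. With no filter on low counts none of the 10 genes was called (Sh2d6 1.68, adjusted p = 0.482; Trpm5 1.20, adjusted p = 0.674). DESeq2 called Sh2d6 and Trpm5 but not Dclk1 (adjusted p = 0.0602) or Matk (adjusted p = 0.0653). Without mouse 2 only Sh2d6 was called (adjusted p = 0.0301; Trpm5 adjusted p = 0.0528), and in pairs alone Sh2d6, Matk and Nrgn were (Trpm5 adjusted p = 0.0708). Trpm5, Dclk1 and Nrgn belong to a list of tip tuft genes that the study chose on these clumps, so their direction is not independent evidence.

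Tuft marker UMIs made up 0.95%, 0.346%, 0.404% and 0.230% of the crypt sums and 1.03% and 1.08% of the villus sums. When the library size was taken from the tuft markers, 41.1% of 1039 genes were called but none of the 6 of these genes that passed the filter (Matk did not), with changes of 1.20 for Sh2d6 (adjusted p = 0.241), 0.52 for Trpm5 (adjusted p = 0.691), 0.43 for Dclk1 (adjusted p = 0.690) and −0.24 for Avil (adjusted p = 0.840). The 10 genes together had 41.2 UMIs per 100 tuft marker UMIs in the crypt and 42.7 in the villus of mouse 1, and 31.1 and 49.5 in mouse 3. With the mouse as a block only Sh2d6 was called (adjusted p = 0.0302), while Trpm5 was at an adjusted p of 0.0603. Villus clumps came from mice 1 and 3 only, so leaving out either leaves a villus arm of 1 sum, which is then assumed to vary like the crypt sums. Without mouse 3 none of 6 genes was called in that reduced fit (Matk did not pass the filter, and Nrgn was at −0.51), and without mouse 1 Rgs13, Avil and Nrgn were called as well, under the same filter.

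The filter bears on the other pathway genes of this fit too. Of 9 immune-type genes tested 4 were called higher, among them Siglecf (log2 change 4.05, adjusted p = 0.0184) and Rac2 (2.76, adjusted p = 0.0294), beside 5 of 6 cytoskeleton and surface genes, led by Espn (4.61, adjusted p = 0.000825), Vil1 (2.62, adjusted p = 0.0126) and Cd24a (2.47, adjusted p = 0.0337), the transcription factor Spib (2.505, adjusted p = 0.00980) and Gnb1 (2.03, adjusted p = 0.0189). The 1 effector tested was not called, and none was called lower. Of those named, Rac2, Vil1 and Cd24a passed the filter on crypt sums alone, while Siglecf, Espn, Spib and Gnb1 passed only with villus sums, so these counts give no support for a difference of the lists. Espn and Vil1, actin bundling proteins, are also genes of the enterocyte brush border. With the library size from tuft markers Rac2, Vil1, Cd24a, Spib and Gnb1 were not called, while Espn was (adjusted p = 0.0188).

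Over all clumps, with the filter, 5 taste cascade genes were tested, and Itpr2 was higher at the tip by 2.29 on the log2 scale (SE 0.51, edgeR adjusted p = 0.000823) and in the mid-villus by 1.43 (adjusted p = 0.0120), of which the second was lost with DESeq2 (1.13, adjusted p = 0.0612). Trpm4 was higher by 0.96 (adjusted p = 0.0398) and 1.18 (adjusted p = 0.0112), of which the first was lost with DESeq2 size factors (0.66, adjusted p = 0.155), as was the mid-villus rise of Gnb1 (0.72, adjusted p = 0.0402). The mid-villus rise of Trpm4 was lost without mouse 3 (1.09, adjusted p = 0.0628). The adapter Fyb of immune-type signalling fell by 2.88 at the tip and by 1.40 in the mid-villus (adjusted p = 0.000852), and the phosphatase Ptpn18 fell by 1.69 in the mid-villus. Sox9 fell by 3.55 in the mid-villus (adjusted p = 0.000392). Of the cytoskeleton and surface genes Espn was higher by 3.702 and 2.78, Vil1 by 1.53 and 1.63 and, at the tip, Krt8 by 0.98 (adjusted p = 0.00688; lost with no filter on low counts, 0.84, adjusted p = 0.0760), while Krt18 fell by 1.27 in the mid-villus (adjusted p = 0.0068). In pairs alone neither Trpm4 (0.37, adjusted p = 0.485, and 0.48, adjusted p = 0.411), Vil1 (0.78, adjusted p = 0.234, and 1.00, adjusted p = 0.172) nor Krt8 (0.33, adjusted p = 0.657) was called. With the mouse as a block no call of these lists was lost, and Cd24a fell by 1.11 at the tip (adjusted p = 0.00470) and by 1.39 in the mid-villus (adjusted p = 1.61e-05), Plcg2 fell by 1.51 (adjusted p = 0.0368) and Ppp3ca rose by 0.70 (adjusted p = 0.0306) at the tip, and Lyn rose by 0.52 in the mid-villus (adjusted p = 0.0493). Enterocytes or immune cells express most of these genes too, and with none of the 10 genes in the fit they give no reading of tuft cells alone.

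Single tuft-like cells were ordered by eta, the tip share of their UMIs of tuft landmark genes, with Trpm5, Dclk1 and Nrgn taken out of the landmarks. Of the 179 cells 171 had enough landmark UMIs, and each mouse was divided at its median into crypt-ward and tip-ward cells (9 and 9 in mouse 1, 72 and 71 in mouse 2, 3 and 3 in mouse 3, 2 and 2 in mouse 4). Trpm5 was read at 1092, 1399, 750 and 357 CPM in crypt-ward and at 1702, 1635, 1337 and 1301 CPM in tip-ward cells of mice 1 to 4, higher in 4 of 4 mice. Matk was likewise higher in 4 of 4 mice, with 904, 1242, 250 and 715 CPM in crypt-ward and 1238, 1616, 729 and 929 CPM in tip-ward cells. Gnat3 and Sucnr1 had UMIs in mice 1 and 2 only. Gnat3 was at 0 and 58.0 CPM in crypt-ward cells (0 and 10 UMIs) and at 77.4 and 166 CPM in tip-ward cells (2 and 26 UMIs). Sucnr1 was at 168 CPM in crypt-ward and 275 CPM in tip-ward cells of mouse 2 (29 and 43 UMIs). In mouse 1 it had 3 UMIs on each side (113 and 116 CPM). Plcb2 was lower in tip-ward cells of mice 1 to 3 and had no UMI in mouse 4, and the other 5 genes were higher in 2 or 3 of 4. Only mice 1 and 2 had enough cells for a test, in which edgeR called 0 of 1067 genes (0%) at an adjusted p under 0.25, 15 genes had an unadjusted p under 0.05, and DESeq2 called 0 with 7 at an unadjusted p under 0.05. Crypt-ward and tip-ward cells come from the same animals, and with the mouse as a block 16 genes were called (2 higher, 14 lower), none of them among the 10.

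In the fit without the block Trpm5 differed by 0.36 on the log2 scale (SE 0.35), Matk by 0.36 (SE 0.36), Rgs13 by 0.23 (SE 0.39), Nrgn by −0.03 (SE 0.35), Avil by −0.05 (SE 0.36), Sh2d6 by −0.13 (SE 0.32) and Dclk1 by −0.15 (SE 0.35), beside Sucnr1 at 0.49 (SE 0.60) and Plcb2 at −0.71 (SE 0.59), all with an edgeR adjusted p of 0.998. Of the 10 genes 9 passed the filter, and their median change of −0.03 was that of all genes tested (−0.03). Each of these differences was smaller than 2 SE, and with 2 mice no difference between crypt-ward and tip-ward tuft cells was detectable for the 10 genes.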

How the data were processed

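UMI counts per gene and well were deposited by the authors as 1 table of clumps (45 plates, 38454111 UMIs) and 1 of single cells (44 plates, 39137313 UMIs). Per the labels and methods, reads were demultiplexed with bcl2fastq 2.15.0.4, aligned to GRCm38 with STAR and counted as UMIs with zUMIs. The same 384 well barcodes serve every plate by design, so shared barcodes do not mark shared cells. Empty wells are not named, so no background was subtracted, and no doublet caller was run.

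Clumps were kept above 500 UMIs if 200 or more genes were seen and mitochondrial genes took no more than 30%, and the 2% with the lowest landmark share were left out. Single cells were kept between 200 and 7000 UMIs, with 150 to 1500 genes seen and a mitochondrial share of no more than 40%. Cells were clustered with scanpy 1.11.5 (2000 variable genes, 20 neighbours, Leiden at 0.1) without the 10 genes and the pathway lists. UMIs were summed per mouse and class, zone or eta side, since the mouse and not the plate is the replicate, and tested with edgeR 4.0.16 (quasi-likelihood, TMM, filterByExpr) under R 4.3.3, with Benjamini-Hochberg adjusted p under 0.05 for clumps and 0.25 for single cells, a script first tested on simulated data. DESeq2 1.42.0, other filters and scalings, other calls and leaving out each mouse were tried.

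The 10 genes and all lists were chosen with earlier results of these data known. Named beside them are, from each pathway list, up to 3 genes past the threshold with the largest change, and the 10 genes most like the mean of the 10; others named were chosen after their values were seen, and an item that this rule names is not reported here. Mouse numbers were taken to mark the same animal within clumps and within single cells, and so to pair the samples. Single cell plates of mouse 2 are labelled 3 and 4 months, so the labels do not show that this number marks 1 animal. In clump zones, deviations of the same mouse correlated at 0.170 to 0.541 over 15 pairs of sums. The planned test of tuft-containing clumps could not be fitted. Clumps of mouse 6 (above 2n) entered no comparison.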

Additional observations from a re-analysis of the deposited data

Results flagged for a closer look

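Among 38 sets of 4 or 5 mice, 12 held a value apart from the rest by Dixon's criterion, which sets the gap to the nearest value against the whole range. In 8 of the 12 every other mouse was at 0, so that any UMI in 1 mouse sets it apart, and the rate of about 1 in 20 sets that chance gives does not hold for such counts. All 12 were levels in clumps and all were the highest value, in mouse 1 or mouse 3. In crypt clumps, mouse 1 was apart for Avil (11.34 CPM), Sh2d6 (12.07 CPM), Nrgn (9.142 CPM), Matk (5.485 CPM) and Sucnr1 (1.097 CPM). In villus tip clumps, mouse 3 was apart for Dclk1 (17.15 CPM), Nrgn (15.93 CPM), Sh2d6 (14.7 CPM), Plcb2 (1.225 CPM) and Sucnr1 (1.225 CPM, 1 UMI each), and mouse 1 for Rgs13 (9.969 CPM). In mid-villus clumps mouse 3 was apart for Plcb2 (0.8274 CPM). Mice 1 and 3 also held all 8 villus clumps called tuft-containing, and the part of these clumps in the values was not tested.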

How the results depend on the processing

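Of the values under alternatives, 180 kept their direction and side of the threshold or moved within the spread, 29 moved by more, 20 lost the threshold, 1 passed it newly and 6 turned direction. With the mouse as a replicate block, the genes called between crypt-ward and tip-ward single tuft cells went from 0 to 16. Those in wider-called tuft-containing clumps went from 315 to 154. In mid-villus clumps they went from 2946 to 4021 of 7376 genes with the filter, and from 3700 to 5570 of 24570 without it. Nrgn turned to 0.0426 in single tuft cells under that block. Pairs alone gave 2391 genes at the tip (3889 over all clumps), 1476 in the mid-villus and 53 in tuft-containing clumps, where no filter gave 70. Leaving out each mouse gave 2492 to 4082 genes at the tip (up to 4836 without the filter), 1705 to 3202 in the mid-villus (up to 4075 without it) and 110 to 396 in tuft-containing clumps, with the fewest without mouse 3 in each (and 175 without mouse 1 in the last). Over all clumps without each mouse the Trpm5 change ran from 1.18 to 2.99 at the tip and from 0.50 to 2.24 in the mid-villus, and with tuft-containing clumps left out as well from 3.42 to 4.48 and from 1.92 to 3.30; DESeq2 gave 2.20 (adjusted p = 0.0689) and 1.39 (adjusted p = 0.295). Avil turned to 0.0065 in single tuft cells without the 4-month plates and to −0.24 in tuft-containing clumps scaled by tuft markers. The ratio of tuft-like cells to the next class fell for all 10 genes when cells were named by marker sums, and turned to −0.40 (log2) for Gnat3 named by marker sums and to −0.99 for Plcb2 in finer clusters. The median co-expression was 0.107 without thinning, 0.105 at 1000 UMIs, 0.0496, 0.0655 and 0.0547 in other draws, and −0.0281 to 0.0309 without each mouse (lowest without mouse 2). The log2 ratio of the 10 genes summed, villus over crypt, in tuft-containing clumps was 1.70, ran from 1.31 to 2.70 without each mouse and was 0.51 per tuft marker UMI, and 7 to 8 genes stayed apart across cell classes. The causes were not tested. The wider call, its alternatives, the other thinning draws and the fits that join no filter with another choice were chosen after seeing the data. A single median of eta over all mice and leaving out a mouse in single tuft cells were not run, since 1 mouse would remain. With 2 to 129 UMIs per gene in clumps, depth limits every zone comparison.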

Other observations

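In 278 wells of mouse 6 (clumps sorted above 2n, 1243705 UMIs), which entered no comparison, Trpm5 had 2 UMIs, Dclk1 and Matk 1 UMI each, and the other 7 genes none.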
